A study of Mus musculus with 2 samples.

Results

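T cell receptor (TcR) signalling genes were examined in Th1 cells, made in culture from naïve CD4 T cells of young adult mice by anti-CD3 and anti-CD28 stimulation with IL-12, IL-2 and anti-IL-4 antibody. Th1 cells are the helper subset that makes IFNγ. The set has 40 genes of the 24421 listed in each table, chosen by symbol as CD3 chains, coreceptors, proximal kinases, adaptors and negative regulators, and all 40 were listed in both tables. RNA of Th1 cells was compared between Chi3l1+/+ mice (labelled WT, n = 1 library) and Chi3l1-/- mice (labelled KO, n = 1 library), both on the C57BL/6J background. The study describes the KO mice as a total knockout of chitinase 3-like 1, so by design the deletion is not limited to T cells. The sources used here do not tie either library to an animal or a pool of animals, and do not give the day on which the sequenced cells were taken.

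The T cell receptor has no enzyme of its own. Peptide bound to MHC is recognized by the antigen-binding chains, and the CD3 chains and CD247 carry tyrosine motifs in their tails that Lck, brought in by CD4 or CD8, phosphorylates. ZAP-70 binds those motifs and phosphorylates LAT and SLP-76 (Lcp2), and the scaffold they form recruits PLCγ1, Grb2 with the exchange factor Sos1, and Vav1. Diacylglycerol made by PLCγ1 activates RasGRP1 and protein kinase C θ, and the latter acts through the Bcl10 and Malt1 complex on NF-κB. Csk, phosphatases, Cbl ubiquitin ligases, Ubash3 proteins and diacylglycerol kinases hold these steps in check. The study proposed Chi3l1 as a brake on T cell activation, and the comparison asks how the messages of activating and inhibiting members stood in both genotypes.

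Values are log2 of a normalized read count plus 1, as read from the deposited tables, and a difference is the library labelled KO minus the library labelled WT on that scale. Rebuilt read counts summed to 70711509 in the library labelled WT and 63056678 in the library labelled KO. With n = 1 per genotype no difference has a replicate check and no test between genotypes exists. The 95% interval given with a difference was taken from the rebuilt reads with the exact Clopper-Pearson method, and it covers counting error only, not variation between mice or cultures. The targeted gene, listed as Chil1, went against the labels, with 1 read in the library labelled WT and 103 reads in the library labelled KO. Whether these reads come from exons that the targeting leaves in place cannot be read from values per gene. An exchange of the labels was not tested, and every direction below rests on the labels as given. Rn45s, the precursor of ribosomal RNA, took 2.83% of the normalized counts in the library labelled WT and 1.0% in the library labelled KO. Differences also followed base composition: across 20 bins of transcript GC content the median difference went from 0.23 at 38.8% GC to -0.45 at 60.9% GC. Each member below is therefore also given, where it matters, after this trend was removed.

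The defining markers of the labelled cell were present. Cd3e had a value of 14.94 in the library labelled WT and 14.86 in the library labelled KO, and Cd4 had 14.32 and 13.94. Tbx21, which encodes the Th1 factor T-bet, had 13.98 and 13.72. The other Th1 markers differed more and in both directions. Ifng was higher in the library labelled KO (11.72 and 13.04, a difference of 1.32), as was the IL-12 receptor chain Il12rb2 (13.90 and 14.35, a difference of 0.45). The chemokine receptor Cxcr3 was lower (8.05 and 6.82, a difference of -1.23). Messages of other cells were also found. Of 6 B cell markers 5 were listed, all 5 higher in the library labelled KO, and their normalized counts summed to 938.9 in the library labelled WT and 1731.0 in the library labelled KO. The 6 neutrophil markers summed to 58.9 and 4.8, with 5 lower in the library labelled KO and Camp at 0 in both. The 6 macrophage markers summed to 517.0 and 489.0, with 3 higher and 2 lower in the library labelled KO and Adgre1 at 0 in both. Most of these sums came from Cd68, at 390.0 and 289.6. The 6 dendritic cell markers summed to 73.6 and 121.9 (Clec9a and Siglech at 0 in both). Within these lists markers went in opposite directions. Lyz2 went from 32.9 to 1.9 normalized counts and Itgax from 42.7 to 4.8, while Csf1r went from 94.1 to 168.5 and Flt3 from 17.4 to 65.8. Mrc1 was at 0 in the library labelled WT and at 28.1 in the library labelled KO. Summed counts of the 5 NK cell markers were 5014.5 and 5151.4, nearly all from Nkg7 and Eomes, which Th1 cells also express. The gamma delta T cell list had 1 of 3 genes listed, Sox13, at 20.3 and 31.9. Ptprc, Ptpn6, Csk, Cbl and Grb2 are used by most leukocytes, and the part of other cells in their values was not tested. In bulk RNA fewer cells of a type and less RNA per cell cannot be told apart.

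Most members of TcR signalling differed by less than 1.5-fold between the libraries. Differences ran from -0.65 for Cd6 to 1.83 for Trat1, with a median of -0.05 over the 40 genes. Only Trat1 was at or past 2-fold, and it was higher in the library labelled KO. Across all 24421 genes, 4.7% were at least 2-fold higher and 5.81% at least 2-fold lower, most of them at low levels. At 1.5-fold, Trat1 and Cd8a were higher and Cd6 was lower in the library labelled KO, and the other 37 members lay between those lines. Most members are well read, so the nearer background is the 9093 genes with a mean value of at least 8 over both libraries, of which 4.5% were at least 1.5-fold higher and 6.68% at least 1.5-fold lower. Of the 38 members in that range, 1 was higher (2.63%) and 1 was lower (2.63%), which is no more than that background. None of the 38 was at or past 2-fold, where this background held 0.605% higher and 0.858% lower. With the GC trend removed Cd6 was the only 1 of the 38 past 1.5-fold, against 3.25% of these genes higher and 3.52% lower. The middle 90% of those genes ran from -0.64 to 0.56, and 36 of the 38 members lay inside it.

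**Figure D1:**
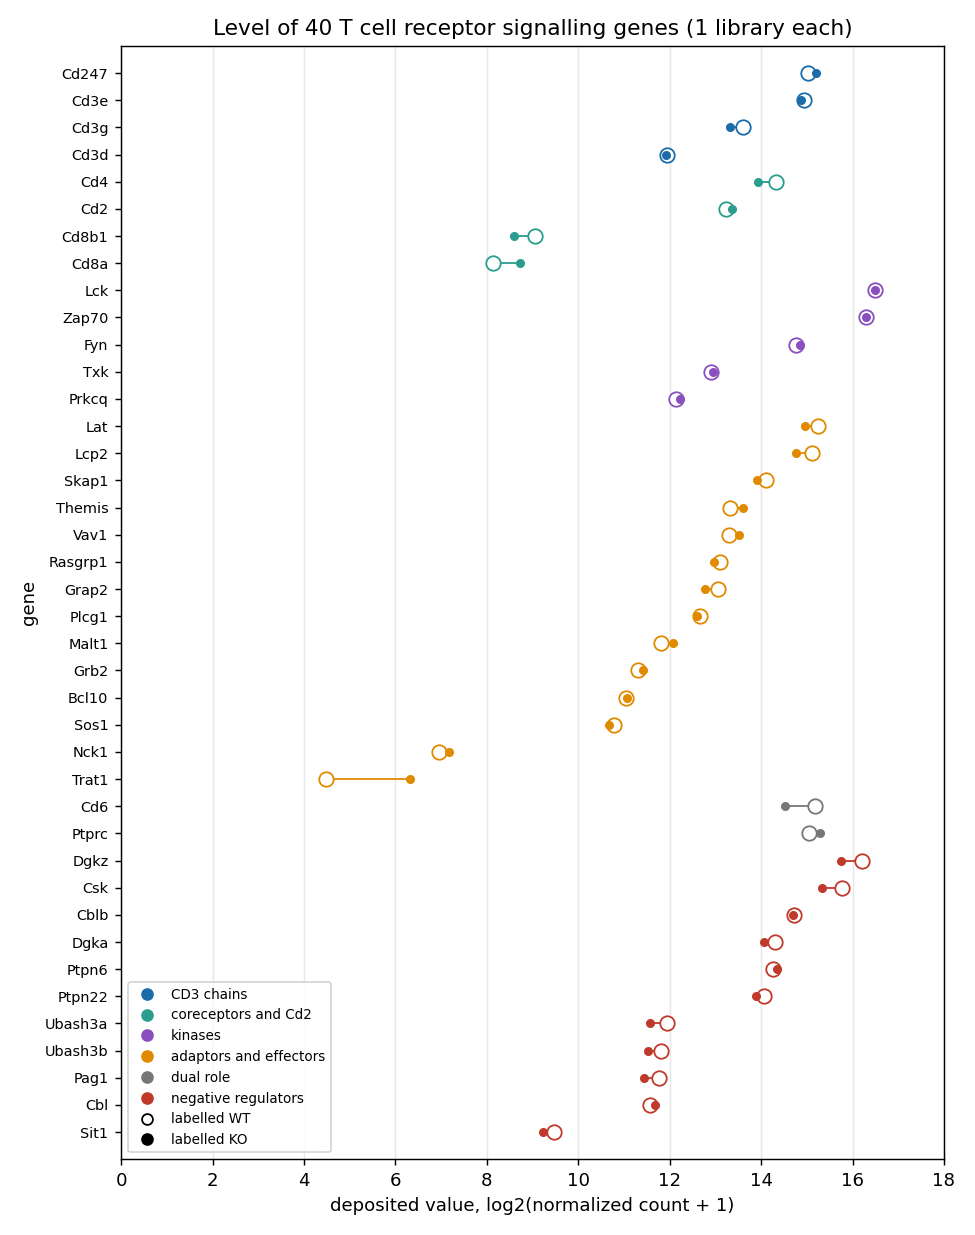
Deposited values, log2(normalized count + 1), of the 40 genes on the horizontal axis, with an open circle for the library labelled WT and a filled circle for the library labelled KO (n = 1 each, no error bars). Lck and Zap70 lie farthest right with overlapping circles, and Trat1, farthest left, has the widest gap, from 4.48 to 6.31.

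Counting error was small for these genes. The 95% counting interval lay above 0 for 13 members, below 0 for 20 and across 0 for 7. Among the 38 well-read members 31.6% lay above 0 and 52.6% below, and among all well-read genes these shares were 37.8% and 41.0%. Intervals clear of 0 are thus the rule at this depth and say nothing of the genotype.

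Trat1, Cd8a and Cd6 passed the 1.5-fold line. Trat1 encodes TRIM, a transmembrane adaptor that joins the receptor complex. It lies on chromosome 16 from 48730774 to 48772021 (GRCm38, the build that the processing notes call mm10). Trat1 had a value of 4.48 in the library labelled WT and 6.31 in the library labelled KO, from 22 and 81 reads. Its difference of 1.83 had a counting interval from 1.18 to 2.63 and was 1.60 with the GC trend removed. With a mean value under 8, Trat1 lies in the range where large differences are common. It was the lowest of the 40 genes per length in both libraries, at 4.6 and 16.8 normalized counts per kilobase.

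Cd8a encodes the CD8 α chain, which is not expected on helper cells. This gene (chromosome 6, 71373427 to 71379173) had a value of 8.13 in the library labelled WT and 8.73 in the library labelled KO, from 289 and 438 reads. Its difference of 0.60 had a counting interval from 0.38 to 0.82, and it was 0.49, under the 1.5-fold line, with the GC trend removed. Its partner Cd8b1, the β chain that marks cytotoxic T cells, went the other way, from 9.06 to 8.59, a difference of -0.47 with an interval from -0.66 to -0.28. Per kilobase, Cd4 was 73.5 times Cd8a in the library labelled WT and 37.4 times in the library labelled KO. Against Cd8b1, Cd4 was 18.3 and 19.6 times higher. Both CD8 messages were thus minor beside Cd4 in both libraries, and the 2 chains did not move together.

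Cd6 encodes a scavenger-receptor family coreceptor at the synapse, which can both support and restrain signalling. On chromosome 19 it spans 10789341 to 10830058. Cd6 had a value of 15.17 in the library labelled WT and 14.52 in the library labelled KO, from 38084 and 24269 reads. Its difference of -0.65 had an interval from -0.68 to -0.63, and among the 38 well-read members it was the farthest from 0. With the GC trend removed it was -0.74, whereas it was inside the 1.5-fold line under quantile normalization (-0.52) and when the libraries were scaled to Actb (-0.54). The related receptor Cd5, a brake on TcR signals outside the set of 40, had 14.93 and 14.41, a difference of -0.53 that was -0.28 with the GC trend removed.

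The sequences upstream of Trat1 and Cd8a are shown because these genes were past 1.5-fold higher, and Cd6 is named only. Each run is the 250 bases before the RefSeq start (GRCm38.p6), 5′ to 3′ on the strand of the gene, at chr16:48772063-48772312 on the minus strand for Trat1 and at chr6:71373177-71373426 on the plus strand for Cd8a. Capitals mark the letters TGTGGT or ACCACA (the RUNX core on either strand) and GGAAGT or ACTTCC (a longer form of the ETS core on either strand). Other runs with GGAA or TTCC were not searched for and are not marked.
Trat1: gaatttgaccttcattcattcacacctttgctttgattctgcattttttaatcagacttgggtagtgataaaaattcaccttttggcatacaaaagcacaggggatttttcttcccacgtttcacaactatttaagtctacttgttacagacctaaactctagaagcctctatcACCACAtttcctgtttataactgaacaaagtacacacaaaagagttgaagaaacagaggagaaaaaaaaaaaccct
Cd8a: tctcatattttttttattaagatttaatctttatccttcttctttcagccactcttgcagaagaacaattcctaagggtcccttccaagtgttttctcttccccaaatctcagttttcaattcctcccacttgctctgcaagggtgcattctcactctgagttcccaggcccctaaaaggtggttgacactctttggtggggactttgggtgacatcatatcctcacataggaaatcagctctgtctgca
The Trat1 stretch is AT-rich (35.2% GC) and holds 1 RUNX core, while the Cd8a stretch (42.8% GC) holds neither of the marked forms. Of the 32851 RefSeq windows of this length, 14.0% held the RUNX core and 19.7% the marked ETS form. For 33 of the 40 genes 48 windows were found, of which 12.5% held the RUNX core and 35.4% the marked ETS form. A match is a run of letters, and RNA levels do not show whether it is used.

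The CD3 chains differed among themselves in level. Cd3g, Cd3d and Cd3e lie side by side on chromosome 9 within 40056 bases, and the start sites of Cd3g and Cd3d are 1355 bases apart and point away from each other. Cd3e, the ε chain found in each CD3 dimer, had a difference of -0.08 (14.94 and 14.86) that was -0.23 with the GC trend removed. Cd3d, the δ chain, had 11.94 and 11.91, and its interval from -0.09 to 0.04 spanned 0. Cd3g, the γ chain, had 13.60 and 13.31, a difference of -0.29, which was -0.52 with the GC trend removed, since its transcript has a GC content of only 38.5%. Cd247, the ζ chain with the most signalling motifs, had 15.02 and 15.21, a difference of 0.19 that was 0.03 with the GC trend removed. Per kilobase of the longest transcript, Cd3e reached 12343 normalized counts in the library labelled WT and Cd3d reached 2423, so the levels of these partners differed far more within a library than between libraries. Of the exonic bases of Cd247, 56.4% overlap Pou2f1 on the other strand in GENCODE M21. Pou2f1 had 12.72 and 12.87, and whether counting kept the strands apart is not given in the sources used here, so the value of Cd247 is uncertain.

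The coreceptor Cd4 had a difference of -0.37, from 14.32 to 13.94, with a counting interval from -0.40 to -0.34 and -0.30 with the GC trend removed. Cd2, an adhesion receptor that lowers the threshold of T cell activation, had 13.23 and 13.37, a difference of 0.14.

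The proximal kinases showed the smallest differences of any role group, from 0.00 for Lck to 0.09 for Prkcq. Lck, the Src-family kinase that starts the cascade, had a value of 16.49 in the library labelled WT and 16.48 in the library labelled KO, and its interval from -0.02 to 0.01 spanned 0. Zap70 had 16.30 in both libraries. These kinase messages were the most abundant of the 40 per length, at 42007 (Lck) and 35889 (Zap70) normalized counts per kilobase in the library labelled WT, and at 41949 and 35914 in the library labelled KO. Fyn, the other Src-family kinase of T cells, had 14.77 and 14.84. Txk, a Tec-family kinase, had 12.91 and 12.95, a difference of 0.03 that was -0.10 with the GC trend removed. Prkcq, protein kinase C θ, had 12.14 and 12.23. For Zap70, with a GC content of 59.6%, removing the GC trend moved the difference to 0.39, and for Lck (54.3%) it moved to 0.14. Near-equal deposited values of these GC-rich genes therefore stand above the genes of like composition.

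The adaptors and effectors were mixed, with 7 higher and 7 lower in the library labelled KO. Lat, the membrane scaffold, had 15.25 and 14.95, a difference of -0.30. Lcp2, which encodes SLP-76, had 15.11 and 14.76, a difference of -0.35, and Grap2, whose product Gads joins SLP-76 to LAT, had 13.06 and 12.76, a difference of -0.30. Their GC contents differ, and so did their values with the GC trend removed, at -0.02 for Lat, -0.48 for Lcp2 and -0.26 for Grap2. Skap1, an adaptor that links the receptor to integrins, had 14.10 and 13.92, a difference of -0.18 that was -0.33 with the GC trend removed. Rasgrp1, an exchange factor for Ras, had 13.11 and 12.97, a difference of -0.14 that was -0.27 with the GC trend removed. Plcg1 had 12.67 and 12.59, and its difference of -0.08 turned to 0.05 with the trend removed and to 0.04 when scaled to Actb. Sos1 had 10.78 and 10.68, and its difference of -0.10 was -0.33 with the trend removed and 0.01 when scaled to Actb.

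The higher adaptors and effectors other than Trat1 were Themis, Malt1, Vav1, Nck1, Grb2 and Bcl10. Themis, which tunes receptor signals by way of Grb2 and Ptpn6, had 13.32 and 13.61, a difference of 0.30. Malt1, the protease of the complex that leads to NF-κB, had 11.82 and 12.08, a difference of 0.26. Both transcripts are AT-rich (38.5% and 35.8% GC), and with the GC trend removed the differences were 0.07 and 0.03. Vav1, an exchange factor for Rac, had 13.30 and 13.53, a difference of 0.23 that was 0.35 with the trend removed. Bcl10 differed by 0.02 and Grb2 by 0.10. Nck1, which links the receptor to actin, had only 126 and 147 reads, and its interval from -0.13 to 0.57 spanned 0. Its difference of 0.22 was -0.01 with the trend removed. Of the dual-role genes other than Cd6, Ptprc encodes the phosphatase CD45, which can activate as well as restrain Lck. It had 15.05 and 15.29, a difference of 0.24 that was 0.01 with the GC trend removed.

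Negative regulators were lower as a group in the library labelled KO, by small amounts. Of the 11 genes, 9 had a difference under 0 (81.8%, against 51.0% of the 9093 well-read genes), and the median was -0.26 against -0.01 for those genes. The 27 activating genes had 13 under 0 and a median of 0.00, and with the GC trend removed 13 and 0.01. The inhibiting median minus the activating median was -0.26 as deposited and -0.15 with the trend removed. Roles were assigned with earlier results of these data known. None of the 11 reached 1.5-fold, and all 11 lay within the middle 90% of well-read genes. With the GC trend removed, 10 of the 11 were under 0 (90.9%, against 49.7% of the 8774 well-read genes with a transcript), and the median was -0.14 against 0.00. Of these 10, Cbl, Csk, Sit1 and Dgkz were then between -0.07 and 0.00, and Cbl had been above 0 as deposited.

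The enzymes that act on Lck, Zap70 and diacylglycerol give the detail. Dgkz, the diacylglycerol kinase that dampens Ras signalling in T cells, had a value of 16.20 in the library labelled WT and 15.74 in the library labelled KO, a difference of -0.46 with an interval from -0.48 to -0.44. Csk, the kinase that places the inhibitory phosphate on Lck, had 15.76 and 15.34, a difference of -0.42. These are the most GC-rich inhibiting transcripts, at 59.6% and 60.1%, and with the trend removed they were at -0.07 and 0.00. Ubash3a and Ubash3b, which encode suppressors of TcR signalling that act on ZAP-70, behaved otherwise. Ubash3a had 11.94 and 11.56, a difference of -0.37, and Ubash3b had 11.81 and 11.53, a difference of -0.28. At 49.0% and 49.1% GC they lie near the point where the trend crosses 0, and they were at -0.42 and -0.32 with it removed. Pag1, the membrane anchor that holds Csk near Lck, had 11.78 and 11.44, a difference of -0.34 that was -0.43 with the trend removed.

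Among the other inhibitors, Dgka, the second diacylglycerol kinase of T cells, had 14.30 and 14.07, a difference of -0.22 that was -0.16 with the GC trend removed. Ptpn22, a phosphatase that works with Csk on Lck, had 14.06 and 13.89, a difference of -0.17 that was -0.31 with the GC trend removed. Sit1, a transmembrane adaptor that binds phosphatases, had 9.48 and 9.22 from 735 and 617 reads, a difference of -0.26 that was -0.03 with the trend removed. The Cbl ubiquitin ligases were nearer 0 or above it as deposited. Cblb had 14.71 and 14.70 with an interval across 0, and it was at -0.14 with the trend removed. Cbl had 11.56 and 11.69, a difference of 0.13 that was 0.00 with the trend removed. Ptpn6, which encodes the phosphatase SHP-1, was also higher, at 14.27 and 14.35, a difference of 0.08 that was 0.25 with the trend removed.

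**Figure D2:**
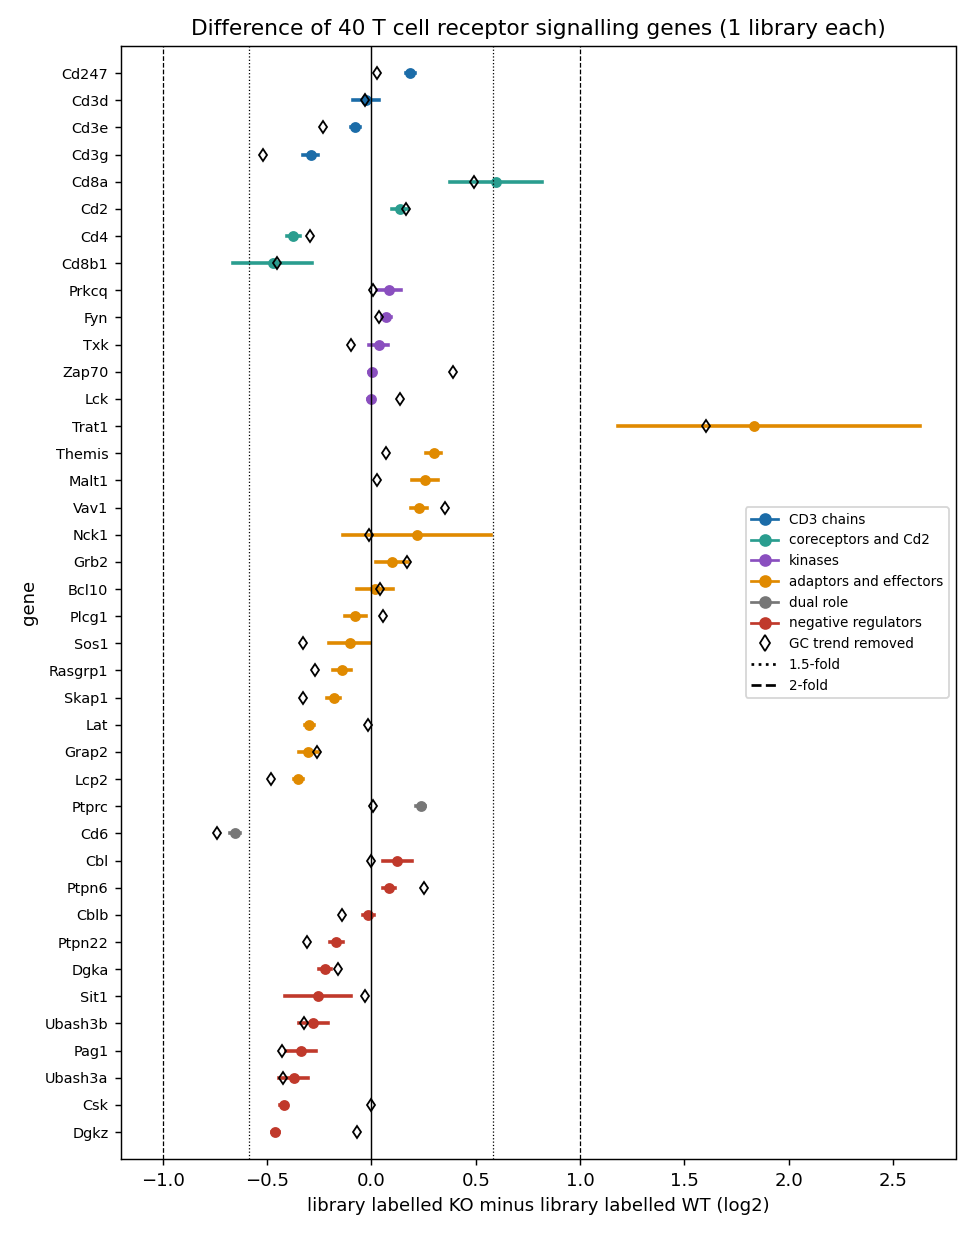
Difference of each of the 40 genes on the horizontal axis (library labelled KO minus library labelled WT, log2), where filled circles are deposited values, bars are 95% counting intervals, open diamonds are values with the GC trend removed, and dotted and dashed lines are 1.5-fold and 2-fold. Only Trat1 lies past 2-fold, 9 of the 11 negative regulators lie left of 0, and the diamonds of Csk and Dgkz lie near 0.

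**Figure D3:**
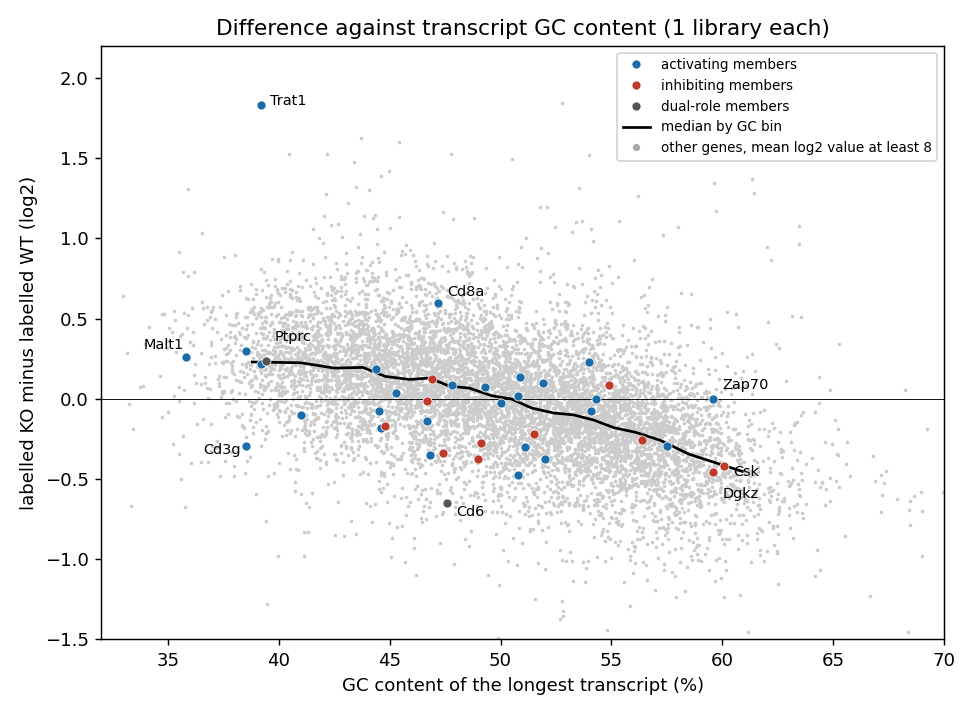
Difference (log2, vertical axis) against GC content of the longest transcript (%, horizontal axis) for the 40 genes in colour and for well-read genes (mean value of at least 8) in grey, with the median of 20 GC bins as a line; 12 grey points lie outside the axes. Csk and Dgkz lie close to the line, Zap70 lies above it, and Cd6 and Cd3g lie below it, while Trat1 and Nck1 have mean values under 8.

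Further genes of the pathway were read from a list of 58, of which 55 were listed in the tables. Trac, Trbc1 and Trbc2, for constant parts of the antigen-binding chains, were not listed under these symbols. As deposited, none was at or past 2-fold. At 1.5-fold, 2 were higher (3.6%) and 5 lower (9.1%) in the library labelled KO, near the 4.5% and 6.68% of well-read genes, and the median was -0.07. Below 0 were 35 of the 55 (63.6%, against 51.0% of well-read genes), and 36 (65.5%) with the GC trend removed, where the median was -0.13. Among the lower genes, Nfatc1, the calcium-driven transcription factor NFATc1, had 16.79 and 16.11, a difference of -0.68. Mapk3, which encodes ERK1, had 12.56 and 11.82, a difference of -0.75. Orai1, the pore of the store-operated calcium channel, had 12.68 and 12.07, a difference of -0.60.

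Ptpn7, a phosphatase of ERK and p38, had 13.45 and 12.83 (-0.62), and Dok2, an adaptor that recruits Ras GTPase-activating protein, had 11.00 and 10.37 (-0.63). Ptpn2, a phosphatase that restrains Lck and JAK signals, had 12.13 and 12.78, a difference of 0.65 with an interval from 0.59 to 0.70. The adaptor gene Shb was higher by 0.64 from 31 and 49 reads, with an interval from -0.02 to 1.36. With the GC trend removed only Shb stayed past 1.5-fold on the higher side, at 1.09, past 2-fold, and on the lower side Ptpn7 (-0.60) and the adaptor gene Tespa1 were, the latter at -0.70 after -0.48 as deposited. Inside the line were then Nfatc1 at -0.57, Mapk3 at -0.46, Dok2 at -0.34, Orai1 at -0.25 and Ptpn2 at 0.42. The groups were not tested against each other, and 51.0% of well-read genes were below 0. Of 13 adaptors 12 were below 0, with a median of -0.33 (-0.24 with the trend removed). The 7 phosphatases and ligases had 3 below 0 and a median of 0.245 (0.074), whereas the median of the 11 negative regulators was -0.26 (-0.14). The 7 genes of the NF-κB arm had 3 below 0 and a median of 0.17 (0.21). Below 0 were also 8 of 11 calcium and NFAT genes, with a median of -0.11 (-0.23). The same held for 5 of 5 kinases and receptors, at -0.085 (-0.175), and 4 of 12 Ras and PI3K genes, at 0.089 (-0.038).

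**Figure D4:**
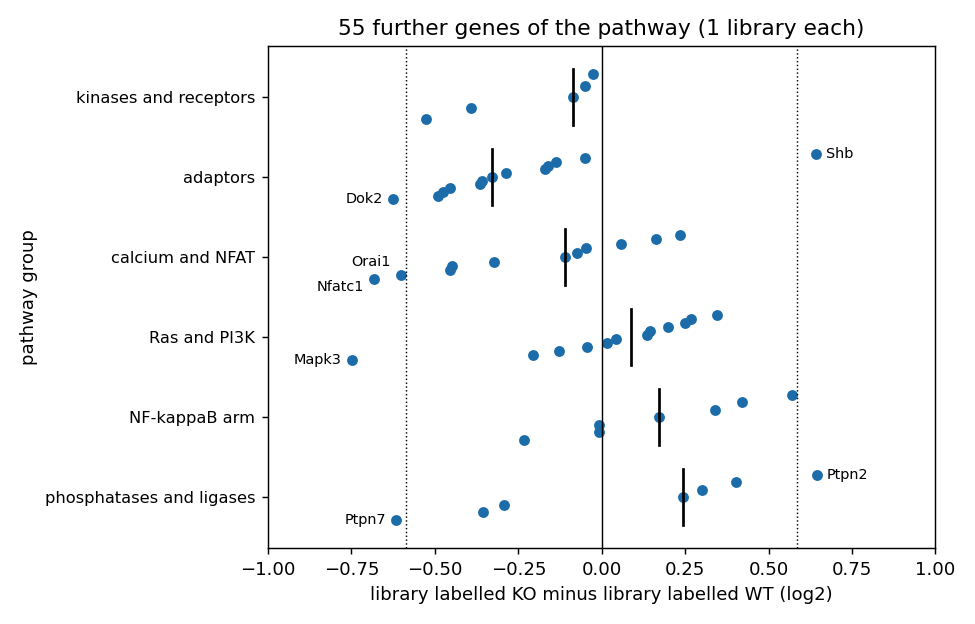
Differences (library labelled KO minus library labelled WT, log2, horizontal axis) of the 55 listed genes, with a point for each gene, a bar at each group's median and dotted lines at 1.5-fold. The 7 named genes lie past those lines, 5 on the lower side and 2 on the higher side.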

How the data were processed

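RNA of 1 Th1 library per genotype was analysed. Poly(A) RNA libraries were sequenced from both ends by the authors, who mapped reads with TopHat and compared counts from unique and multiple alignments with edgeR after a global normalization; the annotation is not given in the sources used here. Deposited values were taken to be log2(normalized count + 1), inferred because low values fall near whole multiples of a step (0.968 in the library labelled WT, 0.966 in the library labelled KO) once the log is undone. All values under 30 came within 0.15 reads of a whole number, and reads were rebuilt with these steps.

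Differences were the deposited log2 values of the library labelled KO minus those labelled WT, rounded to 3 decimals, with no added pseudocount. Fold lines were 2-fold and 1.5-fold. GC content and length came from the longest GENCODE M21 transcript (GRCm38), found for all 40 members, and the GC trend was the median difference in 20 bins over 8579 genes with values of at least 8 in both libraries, interpolated. Exonic overlaps came from the same annotation. All 40 members were named, and from the wider list genes at or past 1.5-fold with at least 20 reads. Cell type marker lists were summed as normalized counts. Members, roles, lists, lines and the GC correction were chosen with earlier results of these data known. Alternatives were the GC trend removed, scaling to Actb, quantile normalization, median-ratio scaling, a pseudocount of 0.1 and a floor on the mean value. Scripts were tested on simulated data. Software was Python 3.11.15 with scipy 1.17.1, pandas 2.3.3, numpy 2.4.6 and, for plots, matplotlib 3.10.9.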

Additional observations from a re-analysis of the deposited data

How the results depend on the processing

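The number of members at or past 2-fold higher was 1 under all scalings and with the GC trend removed, and 0 among members of mean value at least 8, which leaves Trat1 out; none was 2-fold lower under any of these (n = 1 per genotype, so no test was run with any tool). At 1.5-fold, quantile normalization left 1 higher and 0 lower, scaling to Actb left 0 lower, and the GC trend removed or the floor of 8 left 1 higher, because Cd8a was inside the line at 0.57 and 0.49 or Trat1 was left out. The median of activating members was 0.10 under quantile normalization and 0.12 when scaled to Actb, which moves the median of all well-read genes by 0.12. The median of inhibiting members was -0.14 when scaled to Actb, and -0.14 with the GC trend removed, with or without the floor of 8 (the combination with the floor was chosen after seeing the data). Across all settings 8 to 10 of the 11 inhibiting members were below 0. Scaling to Actb turned the sign of 6 members, the GC trend of 5 and quantile normalization of 4. Replicates could not be left out with n = 1. No paired analysis was possible because each genotype has 1 library.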
